A study of Mus musculus with 22 samples.

Results

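The genes described here are 10 markers of inhibitory interneurons and neuropeptide genes: Gad1, Gad2, Pvalb, Calb2, Sst, Npy, Vip, Cck, Penk and Tac1. They were chosen by name, and each was represented by its RefSeq transcript with the highest total over all libraries, so that 10 of the 23037 genes in the count table are covered. The table holds 3′ RNA-seq counts (CelSeq2, in which reads come from the 3′ end of polyadenylated RNA) from the hippocampus, cortex and cerebellum of 8 mice, 22 libraries in all. The study asked which transcripts differ when circTulp4, a circular RNA made from the Tulp4 gene by backsplicing, is reduced. The groups are wild-type (WT) mice and circTulp4-deficient (CD) mice, with 3 WT and 4 CD hippocampi, 4 WT and 4 CD cortices, and 4 WT and 3 CD cerebella, and the regions of a mouse share its number (m118 to m244). The CD allele carries an AG-to-TC change at the splice acceptor site of circTulp4, made with CRISPR-Cas9 on a C57BL/6 background, and the line goes back to a mosaic founder male. The repair template also held a further change, in the protospacer adjacent motif, meant to keep Cas9 from cutting the template. CD mice still make some circTulp4 from a nearby cryptic acceptor site, so the model is a reduction and not a loss. No Cre, transgene or treatment is part of the design, and the age and sex of these mice are not given in the sources used here.

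Inhibitory neurons make GABA from glutamate with glutamate decarboxylase, of which Gad1 and Gad2 encode the isoforms that most GABAergic cells carry together. In the hippocampus and cortex these cells are sorted into classes by calcium-binding proteins (Pvalb, Calb2) and by the peptides they release (Sst, Npy, Vip, Cck, Penk, Tac1), whose precursors are cut by convertases and stored in dense-core vesicles. In the cerebellum the same genes have other hosts as well: Purkinje cells and molecular layer interneurons carry parvalbumin, and granule cells and unipolar brush cells carry calretinin, the product of Calb2. Cck is also made by many excitatory forebrain neurons. Because the tissue was measured in bulk, fewer cells of a type and less RNA per cell cannot be told apart.

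The stretches of sequence in front of the start sites of Sst, Npy, Vip, Cck and Tac1 are shown because these 5 peptide genes were lower in the cerebellum than in both forebrain regions. They are the 100 bases before a start site that RefSeq lists (GRCm38.p6), written 5′ to 3′ on the strand of the gene. For Sst and Vip this site lies inside the span of the gene. Windows were found for 8 of the 10 genes, and Calb2 and Penk, which had none, were not searched. Capitals mark matches to TGACGTC, the core of the cAMP response element, and to TGCGTCA, a related motif, both searched on both strands.
Sst, minus strand, chr16:23890845-23890944: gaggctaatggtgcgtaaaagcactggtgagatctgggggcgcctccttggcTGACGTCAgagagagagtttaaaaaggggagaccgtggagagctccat
Npy, plus strand, chr6:49822610-49822709: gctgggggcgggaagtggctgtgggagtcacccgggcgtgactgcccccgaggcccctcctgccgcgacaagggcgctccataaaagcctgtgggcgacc
Vip, plus strand, chr10:5639118-5639217: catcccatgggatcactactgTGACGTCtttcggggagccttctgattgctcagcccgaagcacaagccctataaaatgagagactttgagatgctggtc
Cck, minus strand, chr9:121495695-121495794: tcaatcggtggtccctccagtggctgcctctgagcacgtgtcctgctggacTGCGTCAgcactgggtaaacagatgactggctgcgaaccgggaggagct
Tac1, plus strand, chr6:7554961-7555060: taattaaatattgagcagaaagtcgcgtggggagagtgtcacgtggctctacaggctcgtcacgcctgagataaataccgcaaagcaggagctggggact

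Among the 9 windows of 250 bases before to 50 after a start site that these 8 genes have, TGACGTC was found in front of Sst, from position -48, and Vip, from -79, and 3.21% of all 32851 such mouse windows hold it. The Sst match reads the same on both strands, so its 2 matches overlap. TGCGTCA was found in front of Cck, from -49, and Tac1, from -199 and so outside the bases shown, and 2.12% of all windows hold it. Neither motif was in the windows of Gad1, Gad2, Npy or Pvalb. These are matches of letters, and the count data do not show whether any factor binds there.

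Libraries held 2760846 to 8858937 counts on 1 transcript per gene. The 10 cerebellum markers summed to 5347 to 5961 cpm (counts per 1000000 counts of a library, scaled by TMM, edgeR's trimmed mean method) in the cerebella and to 67.9 to 105.01 cpm elsewhere, and the 10 cortex markers to 3032 to 3683 cpm in the cortices against 117.1 to 925.2 cpm elsewhere. The 10 hippocampus markers summed to 2463 to 3233 cpm in the hippocampi and 592.3 to 1932 cpm elsewhere. Tulp4, the edited gene, had a log2 fold change of CD against WT of -0.54 in the hippocampi, -1.01 in the cortices and -0.48 in the cerebella. None was called (FDR = 0.997, 0.9998 and 0.981, edgeR), with an unadjusted p of 0.0607, 0.00113 and 0.136 in the same order (edgeR). Over the 3 regions together the log2 fold change was -0.65 (unadjusted p = 0.00103, FDR = 0.9997, limma voom with the mouse as a random block). A lower level of this transcript in CD mice was thus not excluded. The transcript used held 29.2% of the counts summed over distinct Tulp4 rows. Transcript NM_001103181.1 had 8 to 18 counts in the WT and 19 to 33 in the CD cortices, with overlapping counts in the other regions. The study reported no difference in linear Tulp4 between genotypes in the brain by RT-qPCR. The 3′ counts do not measure circTulp4 itself. Counts given to the Tulp4 transcript NM_054040.3 exceeded those given to NM_001103181.1 by 2.71 to 3.69 cpm in the WT hippocampi and by 0.423 to 0.573 cpm in 3 CD hippocampi, but by 3.97 cpm of the library total (16 counts) in the CD hippocampus of m118, which on this measure, chosen after the values were seen, goes against its label. In the cortex and cerebellum the excess was lower in all CD libraries, those of m118 included, than in all WT libraries. Choroid plexus markers summed to 9915 cpm in the WT hippocampus of m244 and 5107 cpm in the CD hippocampus of m190, and blood markers to 12889 to 14039 cpm in the 3 libraries of m118, above all other libraries. Leaving out the 2 choroid-rich hippocampi, or all 3 libraries of m118, left the numbers of members past the FDR and fold thresholds as given here. Counts at an unadjusted p below 0.05 and of groups that do not overlap did change without m118, as given beside them.

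Across regions, 8 of the 10 genes differed between the cerebellum and each forebrain region, and 3 differed between cortex and hippocampus. Sst, Npy, Vip, Cck and Tac1 were lower in the cerebellum, Pvalb, Calb2 and Penk were higher there, and Gad1 and Gad2 stayed within a fold change of 2. A gene was called here when edgeR's quasi-likelihood test over the 22 libraries gave an FDR under 0.01 with a difference of more than 2-fold in either direction. By this rule 3 members were higher and 5 lower in the cerebellum than in the hippocampus, where 9.76% and 13.0% of the 11137 genes tested were called in these directions. Against the cortex the counts were again 3 and 5, where 9.70% and 12.9% of all genes were called. In the cortex 2 members were higher and 1 lower than in the hippocampus, where 4.38% and 4.03% of all genes were called. The median member log2 fold change was -0.63 for cerebellum against hippocampus, -1.07 for cerebellum against cortex and 0.35 for cortex against hippocampus, where all genes had medians within 0.02 of zero. Vip and Tac1 passed the count filter through forebrain libraries alone, so that their presence among the genes tested already depends on being higher there.

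**Figure D1:**
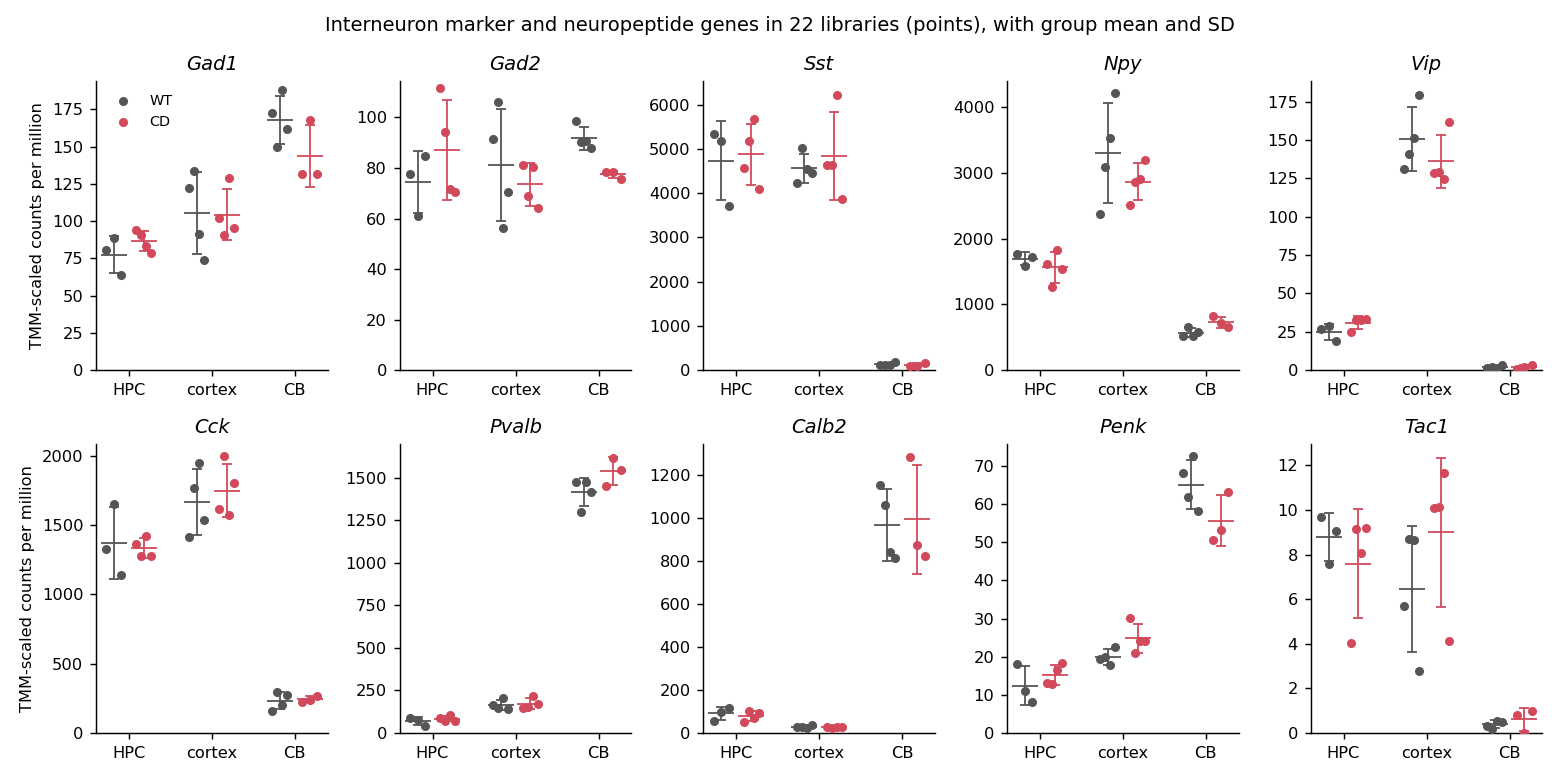
Level of each of the 10 genes in the hippocampus (HPC), cortex and cerebellum (CB), in TMM-scaled cpm; each point is a library, grey for WT and red for CD, and the bars give the group mean and SD (n = 3 or 4). The regions stand apart for most genes, with cerebellar Sst at 96.1 to 193.3 cpm against 3698 to 6224 cpm in the forebrain, while WT and CD points overlap in all panels except for Gad2 in the cerebellum.

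**Figure D2:**
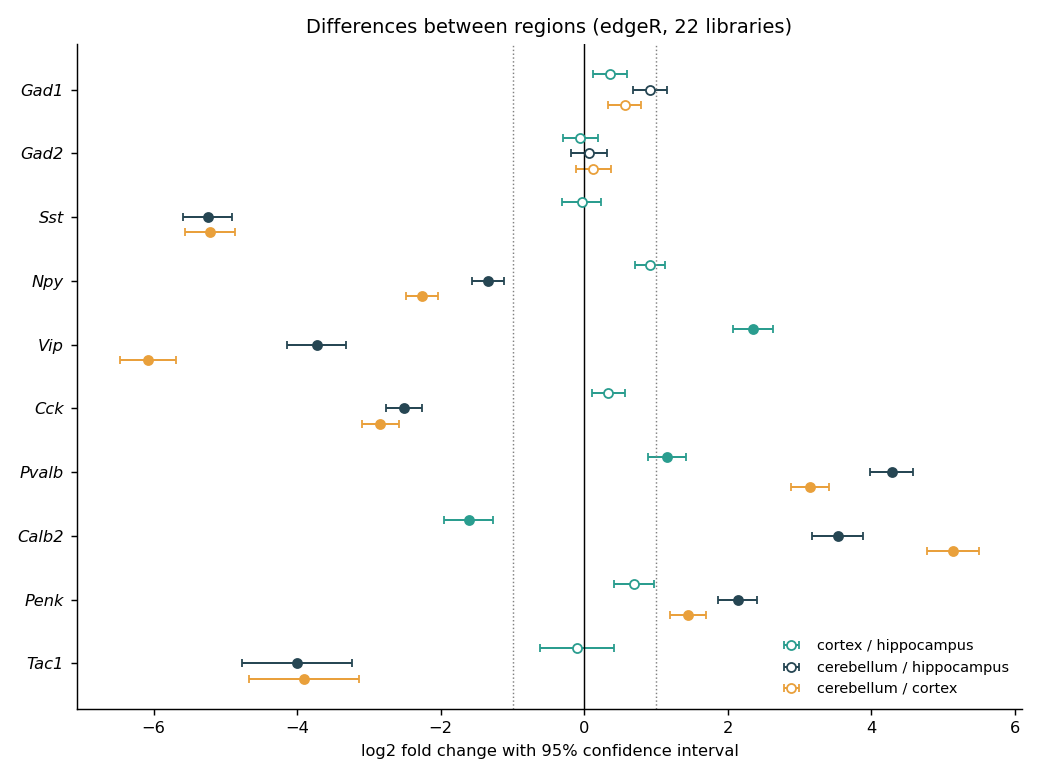
Log2 fold change of each gene between regions with its 95% confidence interval (edgeR, 22 libraries); filled points passed the FDR and fold thresholds, and the dotted lines mark a fold change of 2. Vip was lowest in the cerebellum against the cortex (-6.08), Calb2 highest (5.14), and Gad1 and Gad2 lie between the dotted lines.

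Of the decarboxylase genes, Gad1 had its highest levels in the cerebellum, with a difference under the fold threshold, and the Gad2 levels of the regions overlapped. Coordinates beside a transcript here and below are the span of its gene in RefSeq (GRCm38.p6). Gad1 (XR_001780815.1, chr2:70561303-70602014, 5 annotated transcripts with 3 distinct rows of counts) had a lowest, median and highest level of 64.0, 83.5 and 94.0 cpm in the hippocampus, 74.1, 98.8 and 133.5 cpm in the cortex and 131.4, 162.1 and 187.8 cpm in the cerebellum. The hippocampi and cortices overlapped, and all cerebella were above all hippocampi. The log2 fold change of cerebellum against hippocampus was 0.92 ± 0.12 (SE; FDR = 1.62e-07, edgeR), 1.89-fold and under the fold threshold; with the WT libraries alone it was 1.11 and passed it. Cortex against hippocampus gave 0.36 ± 0.11 (SE; FDR = 0.0136, edgeR). Gad2 (NM_008078.2, chr2:22621015-22693877) had 60.9, 77.8 and 111.6 cpm in the hippocampus, 56.4, 75.4 and 106.3 cpm in the cortex and 75.7, 87.8 and 98.4 cpm in the cerebellum. These ranges overlapped, and the 95% intervals of its 3 log2 fold changes lay between -0.30 and 0.37.

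The Gad1 and Gad2 levels of a library were also set against each other, a comparison chosen after the values were seen. In 3′ counting each transcript gives tags from its end, so the ratio was compared between regions and not read as a ratio of molecules. Gad1 counts divided by Gad2 counts were 0.756 to 1.45 in the hippocampus, 1.05 to 1.63 in the cortex and 1.66 to 2.14 in the cerebellum. The ratio was higher in cortex than in hippocampus in 7 of 7 mice, and higher in cerebellum than in cortex in 7 of 7 mice. All 7 cerebella were above all other libraries. Mice kept part of their rank: m240 had the highest WT ratio in each region (1.45, 1.63 and 2.07), and m190 the highest CD ratio (1.17, 1.603 and 2.14). The vesicular GABA transporter Slc32a1, which loads GABA into synaptic vesicles, was at 61.6 to 104.1 cpm in the hippocampus, 86.3 to 127.8 cpm in the cortex and 202.7 to 255.8 cpm in the cerebellum, and its log2 fold change of 1.43 in cerebellum against hippocampus was called.

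**Figure D3:**
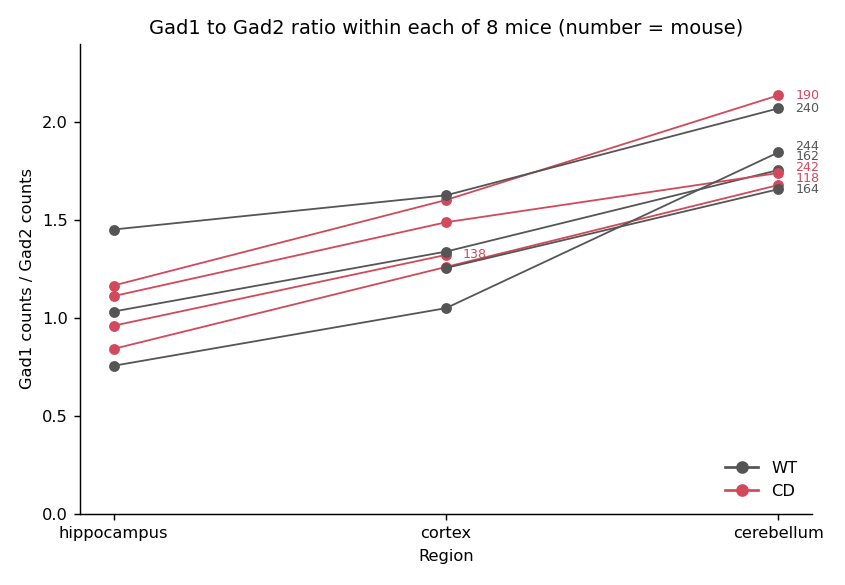
Gad1 counts divided by Gad2 counts in each library, with a line joining the regions of a mouse, grey for WT and red for CD; the y axis starts at 0. The ratio rose from hippocampus to cortex in 7 of 7 mice and the cerebella lie highest, between 1.66 and 2.14.

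The calcium-binding protein genes were highest in the cerebellum. Pvalb (NM_013645.3, chr15:78191112-78206400), which encodes parvalbumin of fast-spiking basket cells and of Purkinje cells, had 42.5, 75.6 and 104.02 cpm in the hippocampus, 143.4, 159.02 and 216.5 cpm in the cortex and 1302, 1476 and 1618 cpm in the cerebellum. The 3 regions did not overlap. Its log2 fold change was 1.15 ± 0.13 (SE; FDR = 7.86e-08, edgeR) for cortex against hippocampus and 3.14 ± 0.13 (SE; FDR = 9.33e-17, edgeR) for cerebellum against cortex.

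Calb2 (NM_007586.1, chr8:110142526-110168212), the calretinin gene, had the reverse order in the forebrain, with 50.5, 94.8 and 117.99 cpm in the hippocampus and 22.5, 27.7 and 37.6 cpm in the cortex. The cerebella had 813.2, 875.7 and 1284 cpm, and no region overlapped another. The log2 fold change was -1.61 ± 0.16 (SE; FDR = 1.74e-08, edgeR) for cortex against hippocampus, a 3.06-fold difference, and 5.14 ± 0.18 (SE; FDR = 2.62e-18, edgeR) for cerebellum against cortex. Markers of cerebellar cells that carry these proteins were also highest in the cerebellum: the 10 Purkinje cell markers summed to 8506 to 9748 cpm in the cerebella and 774.4 to 1237 cpm elsewhere, and the 8 markers of unipolar brush cells and granule cells to 3214 to 4383 cpm and 188.1 to 355.6 cpm. The latter sums overlapped between cortex and hippocampus, where Calb2 did not. In the list of mossy cell and Cajal-Retzius markers, which includes Calb2, the 9 other genes summed to 200.3 to 262.9 cpm in the hippocampi. In the cortices they summed to 164.6 to 203.6 cpm, so these ranges overlapped at their ends. The 9 thalamus markers other than Calb2 overlapped widely (56.5 to 81.4 and 38.9 to 79.8 cpm). The part of any of these cells in the levels of Pvalb and Calb2 was not tested.

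Sst and Cck stood at like levels in hippocampus and cortex and were low in the cerebellum. Sst (NM_009215.1, chr16:23889573-23891342), the somatostatin gene of dendrite-targeting interneurons, had 3698, 5167 and 5673 cpm in the hippocampus, 3876, 4587 and 6224 cpm in the cortex and 96.1, 108.5 and 193.3 cpm in the cerebellum. The forebrain regions overlapped over most of their range, with a log2 fold change of -0.03 between them (95% interval -0.30 to 0.24), and all cerebella were far below. Against the hippocampus the cerebellum was 38.0-fold lower (log2 fold change -5.25 ± 0.17, SE; FDR = 8.27e-19, edgeR). Cck (NM_001284508.2, chr9:121489824-121495694), the cholecystokinin gene, had 1137, 1329 and 1653 cpm in the hippocampus, 1412, 1693 and 1997 cpm in the cortex and 158.6, 238.7 and 294.0 cpm in the cerebellum. Cortex and hippocampus overlapped, although the cortex was higher in 7 of 7 mice (log2 fold change 0.33 ± 0.11, SE; FDR = 0.0207, edgeR). The cerebellum was 5.68-fold below the hippocampus and 7.16-fold below the cortex.

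Npy and Vip were highest in the cortex. Npy (NM_023456.3, chr6:49822710-49829507), which encodes neuropeptide Y of neurogliaform and other interneurons, had 1273, 1623 and 1834 cpm in the hippocampus, 2381, 3000 and 4212 cpm in the cortex and 514.5, 659.03 and 818.4 cpm in the cerebellum. No region overlapped another. The cortex was above the hippocampus in 7 of 7 mice, and its fold change of 1.89 (log2 0.92 ± 0.10, SE; FDR = 8.62e-08, edgeR) was under the fold threshold. The cerebellum was 2.53-fold below the hippocampus and 4.78-fold below the cortex.

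Vip (NM_011702.3, chr10:5639193-5647617), the vasoactive intestinal peptide gene of interneurons that target other interneurons, had 19.3, 28.7 and 33.6 cpm in the hippocampus and 124.5, 135.9 and 179.4 cpm in the cortex. The cortex was 5.10-fold higher (log2 2.35 ± 0.14, SE; FDR = 7.55e-13, edgeR), between 3.79-fold and 9.30-fold within single mice. The cerebella had 3 to 27 counts each, 89 in all, or 0.611 to 3.54 cpm. Vip was thus near the limit of counting in this region, and its log2 fold change of -6.08 against the cortex rests on few counts.

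Penk and Tac1 were low in the forebrain and took opposite directions in the cerebellum. Penk (NM_001002927.2, chr4:4133536-4138815), the precursor of the enkephalins, had 8.03, 13.1 and 18.3 cpm in the hippocampus, 17.8, 21.7 and 30.1 cpm in the cortex and 50.5, 61.7 and 72.6 cpm in the cerebellum. The forebrain ranges overlapped at their ends, and all cerebella were higher. The cerebellum was 4.40-fold above the hippocampus and 2.73-fold above the cortex, both called, while the cortex was 1.61-fold above the hippocampus (FDR = 0.000194, edgeR) and under the fold threshold. Tac1 (NM_001311060.1, chr6:7555061-7562978), the precursor of substance P, had 4.02, 9.05 and 9.68 cpm in the hippocampus and 2.77, 8.68 and 11.7 cpm in the cortex. Both forebrain ranges overlapped. The 7 cerebella had 0 to 8 counts each, 21 in all, and were below all forebrain libraries.

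Between CD and WT mice, 0 of the 10 members passed the thresholds in the hippocampus, the cortex or the cerebellum, where 0% of the 9964, 9927 and 10141 genes tested passed. The same was true over the 3 regions together (limma voom with the mouse as a random block). The study, which used fewer libraries and more transcripts, reported calls at these FDR and fold thresholds in the hippocampus and cortex but not in the cerebellum. Member log2 fold changes of CD against WT lay between -0.20 and 0.31 in the hippocampus, between -0.21 and 0.41 in the cortex and between -0.24 and 0.36 in the cerebellum. For 27 of the 28 values the 95% interval lay inside a fold change of 2, the exception being Tac1 in the cortex (0.41, interval -0.33 to 1.15), so that smaller differences were not excluded. At an unadjusted p below 0.05 by edgeR, 0 members were found in the hippocampus, where 4.22% of all genes were, 0 in the cortex, where 3.30% were, and 2 of 8 in the cerebellum, where 4.55% were. Over the 3 regions together 0 members had such a p, where 3.58% of all genes did, and the member log2 fold changes lay between -0.07 and 0.16. Without m118, a choice made after seeing the data, Vip in the hippocampus had an unadjusted p below 0.05, and Gad2 and Npy in the cerebellum no longer did. The shares of all genes in this paragraph are with m118 included, and none is given for the fits without it. Groups did not overlap for 0 members in the hippocampus (5.45% of all genes), 0 in the cortex (2.46%) and 1 in the cerebellum (5.23%).

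**Figure D4:**
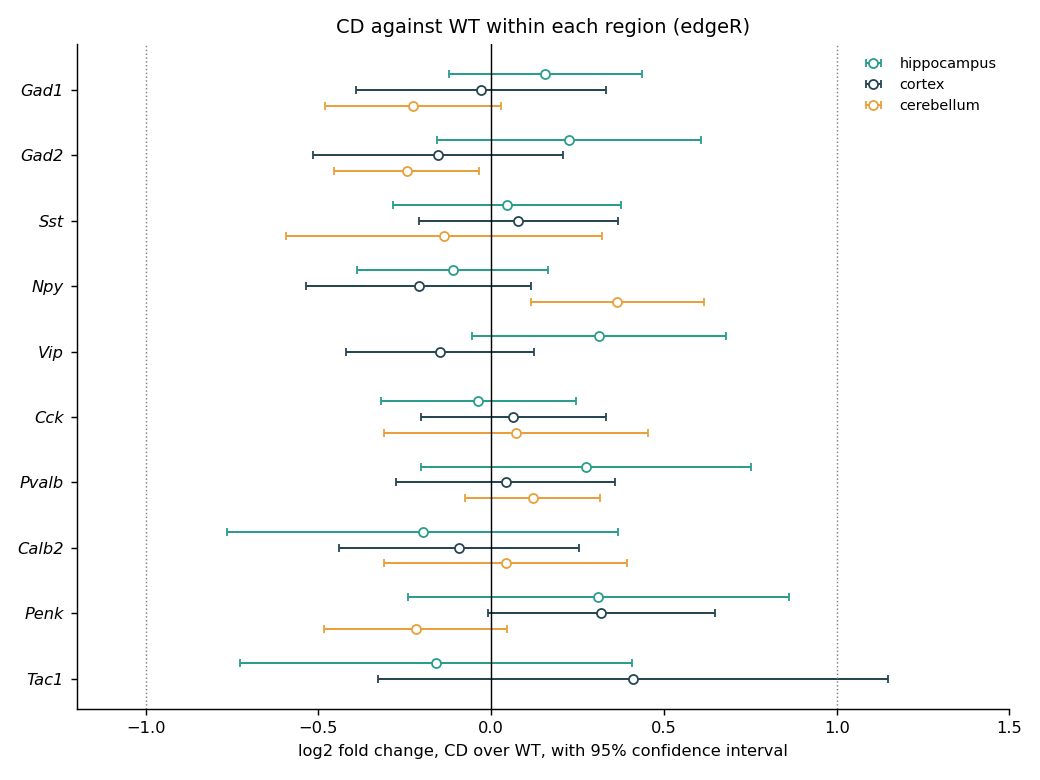
Log2 fold change of CD over WT for each gene within the hippocampus, cortex and cerebellum, with its 95% confidence interval (edgeR); open points did not pass the thresholds, and the dotted lines mark a fold change of 2. The intervals of Gad2 and Npy in the cerebellum are the ones that leave out 0; Vip and Tac1 have no cerebellar value because of low counts.

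The 2 cerebellar genes were Gad2 and Npy. Gad2 was at 98.4, 90.4, 90.7 and 87.8 cpm in the WT cerebella and at 78.2, 78.4 and 75.7 cpm in the CD cerebella. All CD values were below all WT values, although the unadjusted p passed 0.05 when the library of m162, m118 or m242 was left out (0.0689, 0.0504 and 0.0712, edgeR). Its log2 fold change was -0.24 ± 0.10 (SE; unadjusted p = 0.0260, FDR = 0.981, edgeR), and Gad1, which makes GABA in the same cells, had -0.23 ± 0.12 (SE; unadjusted p = 0.0780, edgeR) with overlapping groups, 149.9 to 187.8 cpm in WT and 131.4 to 167.6 cpm in CD. In the hippocampus the Gad2 value had the other sign (0.22 ± 0.17, SE), and the test of the difference between regions gave an unadjusted p of 0.149 (FDR = 0.999, edgeR).

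Npy was at 517.4, 662.9, 514.5 and 573.9 cpm in the WT cerebella and at 818.4, 710.5 and 659.03 cpm in the CD cerebella. The lowest CD value was just under the highest WT value. The log2 fold change was 0.36 ± 0.12 (SE; unadjusted p = 0.00764, FDR = 0.981, edgeR), and without m118, which has the highest value, it was 0.27 (unadjusted p = 0.0541, edgeR). In the hippocampus it was -0.11 ± 0.13 (SE) and in the cortex -0.21 ± 0.15 (SE). The test of genotype by region gave an unadjusted p of 0.0238 for Npy, the smallest of the 10 members, and an FDR of 0.999 (edgeR), and 0% of all genes passed an FDR of 0.05. Markers of hypothalamus and pituitary summed to 101.4, 76.03 and 8.31 cpm in the CD cerebella of mice m118, m190 and m242, where Npy was 818.4, 710.5 and 659.03 cpm, and to 8.15 to 18.7 cpm in the WT cerebella. These sums also reached 130.7 cpm in the CD hippocampi (WT at most 13.9 cpm) and 94.3 cpm in the CD cortices (WT at most 8.46 cpm), where the Npy values were lower in CD. Among these markers Prl (log2 fold change 3.63) and Gh (3.20), both pituitary hormones, had an unadjusted p below 0.01. Their part in the Npy difference was not tested.

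In the other regions the smallest member p-values belonged to Penk and Vip. Penk was at 19.4, 19.9, 17.8 and 22.6 cpm in the WT cortices and at 30.1, 20.9, 24.2 and 23.99 cpm in the CD cortices. The groups overlapped, and the highest value came from m118 (log2 fold change 0.32 ± 0.15, SE; unadjusted p = 0.0554, edgeR), without which it was 0.22. In the cerebellum Penk was lower in CD mice (-0.22 ± 0.12, SE; unadjusted p = 0.0975, edgeR), with 58.1 to 72.6 cpm in WT and 50.5 to 63.3 cpm in CD. Vip was at 27.1, 28.7 and 19.3 cpm in the WT hippocampi and at 24.6, 32.8, 32.9 and 33.6 cpm in the CD hippocampi. The lowest CD value came from the library of m118 that, by 16 Tulp4 counts on a measure chosen after the values were seen, goes against its label. With this library the log2 fold change of Vip was 0.31 ± 0.17 (SE; unadjusted p = 0.0900, edgeR), and without the 2 choroid-rich libraries it was 0.13. Without the m118 library it was 0.40 (unadjusted p = 0.0280, edgeR) with groups that did not overlap. No share of all genes is given for that smaller set, where groups separate more easily.

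Vip and Tac1 did not reach 5 cpm in 2 cerebella and were compared by a two-sided exact permutation test on log2(cpm + 0.5). The mean was 1.27 in WT and 1.11 in CD for Vip (exact permutation p = 0.800) and -0.20 and -0.01 for Tac1 (exact permutation p = 0.714), where the smallest p the design allows is 0.0286. At these counts a difference was not detectable. The WT hippocampus of m244, the library richest in choroid plexus markers, had the lowest level of Sst, Cck, Pvalb, Penk, Vip and Gad1 among the hippocampi and the highest of Calb2. Leaving it out together with the CD hippocampus of m190 turned the sign of 8 of the 20 hippocampal and 3-region log2 fold changes of the members.

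Receptors of the peptides had few counts, and 7 of the 17 genes listed reached the filter. In the cerebellum 6 of these 7 were lower than in the hippocampus and 6 lower than in the cortex, and 0 were higher, where 13.0% and 12.9% of all genes were lower. In cortex against hippocampus 3 were higher and 1 was lower (4.38% and 4.03% of all genes). Since most of them reached the filter through a forebrain region, a difference was partly built into their choice. Npy2r, the receptor that often sits on axon terminals, was at 56.3 to 81.4 cpm in the hippocampus, 1.34 to 3.49 cpm in the cortex and 0.453 to 1.28 cpm in the cerebellum. The hippocampus thus held nearly all of the Npy2r counts, with a log2 fold change of -4.88 for cortex against hippocampus, while Npy itself was higher in the cortex. Npy1r was at 15.04 to 23.6 cpm in the hippocampus, 17.4 to 29.0 cpm in the cortex and 0.604 to 1.83 cpm in the cerebellum. Cckbr, the main brain receptor of cholecystokinin, was at 101.7 to 161.8 cpm in the cortex and 8.67 to 20.3 cpm in the hippocampus, a log2 fold change of 3.37, where Cck differed by 0.33. Sstr3 was the receptor with no call, at 6.94 to 19.4 cpm over the 22 libraries.

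**Figure D5:**
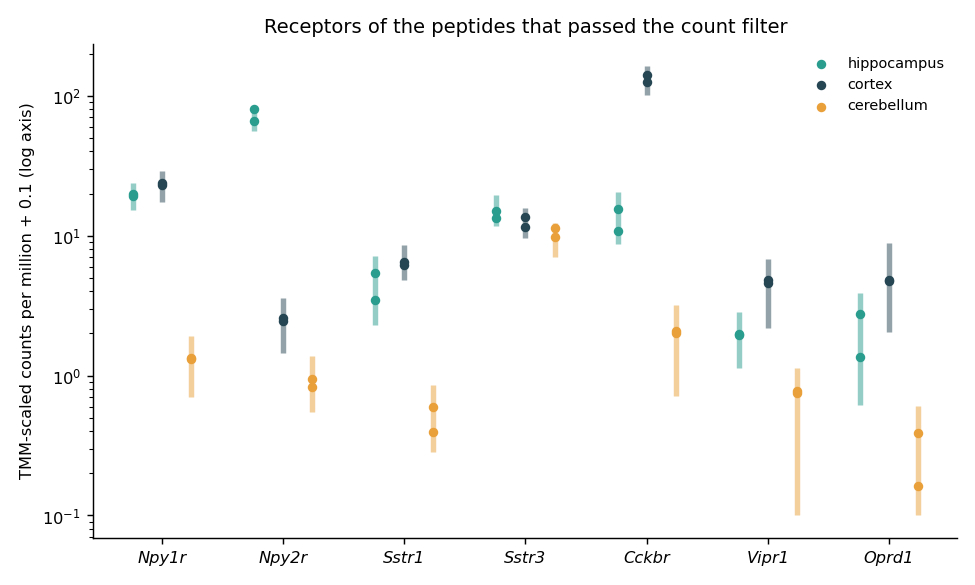
Levels of the 7 peptide receptor genes that passed the count filter, on a log axis of TMM-scaled cpm plus a small offset; bars span the lowest to the highest library of a region (7 hippocampi, 8 cortices, 7 cerebella) and points are the WT and CD group means. Npy2r lies highest in the hippocampus (56.3 to 81.4 cpm), Cckbr in the cortex (101.7 to 161.8 cpm), and cerebellar levels are low except for Sstr3.

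Of 36 other interneuron marker genes, 29 were tested, of which 6 were higher and 18 lower in the cerebellum than in the hippocampus (9.76% and 13.0% of all genes), 6 higher and 16 lower than in the cortex (9.70% and 12.9%), and 3 higher and 5 lower in cortex than in hippocampus (4.38% and 4.03%). Among the cerebellum libraries 17 of the 29 reached the filter. For the others a lower level in the cerebellum was partly built into their choice. Among the cortex libraries 26 of the 29 reached it, and for the rest a lower cortex level was likewise partly built in. Prox1, a transcription factor of caudal interneurons and of dentate granule cells (log2 fold change -3.26), and Slc44a5 (-3.03) were lower in cortex than in hippocampus. Slc44a5 had only 0 to 7 counts in each cortex, under the filter. Htr3a and Dlx6os1 were lower in cerebellum than in hippocampus, with log2 fold changes of -6.04 and -6.25. Dlx1, a transcription factor of interneurons born in the ganglionic eminences, was at 34.8 to 51.7 cpm in the hippocampus, 46.3 to 55.5 cpm in the cortex and 0.744 to 2.53 cpm in the cerebellum. Kcnc2, a potassium channel of fast-spiking cells, was at 144.5 to 243.1 cpm in the forebrain libraries and 3.46 to 10.6 cpm in the cerebella, where Pvalb was higher. Reln, which granule cells of the cerebellum also make, was at 63.95 to 83.7 cpm in the cerebellum and at 10.4 to 22.5 cpm elsewhere. Lamp5, a marker of neurogliaform cells, was at 314.7 to 422.9 cpm in the cortex and 36.2 to 49.7 cpm in the hippocampus. Tac2, the neurokinin B precursor, was at 68.3 to 116.8 cpm in the cortex, 12.1 to 31.2 cpm in the hippocampus and 0.694 to 3.26 cpm in the cerebellum, which is the order of Vip.

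Of the 10 genes of GABA packaging, uptake, breakdown and supply, 3 were higher and 2 lower in the cerebellum than in the hippocampus (9.76% and 13.0% of all genes). Slc6a11, a GABA transporter of astrocytes, was lower (4.89 to 6.76 cpm in the cerebellum, 17.1 to 26.4 cpm in the hippocampus), and Slc38a1, a glutamine transporter, was higher (64.7 to 109.3 and 27.7 to 54.05 cpm). Of the 15 tested genes of propeptide processing and dense-core vesicles, 1 was higher and 4 were lower in the cerebellum than in the hippocampus (9.76% and 13.0% of all genes) and again than in the cortex (9.70% and 12.9%). Pam, which amidates peptides such as neuropeptide Y and cholecystokinin, was at 6.49 to 11.4 cpm in the cerebellum and 37.05 to 67.7 cpm elsewhere, and Vgf at 29.2 to 47.2 and 184.6 to 652.5 cpm. Cadps2, a vesicle priming factor, was the gene that was higher (176.6 to 225.0 cpm in the cerebellum, 43.9 to 74.3 cpm elsewhere). In cortex against hippocampus the convertase gene Pcsk1 was the 1 call of this list (log2 fold change 1.45), where 4.38% of all genes were higher. Of 22 other neuropeptide genes, 10 were tested, of which 1 was higher and 7 were lower in the cerebellum than in the hippocampus and again than in the cortex, against the same shares of all genes. Among the cerebellum libraries only 2 of the 10 reached the filter, so a lower level there was partly built into the choice of genes tested. In cortex against hippocampus 2 were higher, Adcyap1 (log2 fold change 2.07) and Tac2, and 2 were lower, Nts (-3.07) and Grp (-1.16). Nts had 1 to 3 counts in each CD cortex and 0 to 39 in the WT cortices. Among the hippocampi 7 of the 10 reached the filter, as did 7 among the cortices, so for the others a difference was partly built in. Pdyn, the dynorphin precursor, was at 11.2 to 26.5 cpm in the forebrain and at 0 to 3 counts in each cerebellum.

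Between CD and WT mice 0 genes of these lists or of the marker lists passed the thresholds in any region. In the hippocampus Grp (log2 fold change 0.99), Erbb4 (0.86), Tac2 (0.69), Etv1 (0.54), Chgb (-0.36), Cartpt (-0.60) and Cdhr1 (-1.07) had an unadjusted p below 0.01 by edgeR, each with an FDR of 0.997. The share of all genes at this p is not given here, so their number is not read as a result about the lists. In the cortex this held for Gh (3.39), and in the cerebellum for Fat2 (0.45), Gh and Prl besides Npy. Tac2, which had the regional order of Vip, was at 12.1 to 22.4 cpm in the WT and 23.9 to 31.2 cpm in the CD hippocampi. These groups did not overlap, which held for 5.45% of all genes tested in the hippocampus.

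The genes whose log2 levels followed a member most closely over the 22 libraries were mostly genes of the same region, since the regions set most of the spread. Sst followed Chrm1 (Pearson r = 0.995), a muscarinic acetylcholine receptor, and Enc1 (0.994). Pvalb followed Ank1 (0.994), Itpr1 (0.989) and Grm4 (0.985), and Penk followed Itpr1 (0.966) and Ank1 (0.965) as well. Gad1 followed Slc32a1 most closely (0.937). For Gad2, whose regions overlap, the closest gene was Cdk12 (0.791). Vip followed Rgs4 (0.994), Cck Kalrn (0.991), Calb2 Hpcal1 (0.987), Npy Catsperz (0.986) and Tac1 Mmp17 (0.971).

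Taken as deviations from the 6 group means, which removes region and genotype, the closest genes were Sparcl1 for Gad1 (r = 0.936), Acsl6 for Gad2 (0.886), Rab2a for Pvalb (0.873), Usp19 for Cck (0.860), Tmem266 for Npy (0.837), Trmt61b for Calb2 (0.836), Sbds for Tac1 (0.824), Tmem44 for Vip (0.801), Suds3 for Penk (0.800) and Marchf1 for Sst (0.725). Among the members themselves the deviations of Sst and Vip rose together (r = 0.598), as did those of Gad1 and Gad2 (0.490), while those of Gad1 and Npy (-0.582) and of Pvalb and Calb2 (-0.581) went in opposite directions. These correlations are over 22 libraries that share mice and differ in depth and in tissue markers, and no test was made of them.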

How the data were processed

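CelSeq2 3′ libraries of 22 brain samples from 8 mice were analysed. The authors deposited raw counts per RefSeq transcript, with no normalization: STAR alignments to mm10 were assigned by ESAT (End Sequence Analysis Toolkit) to transcript ends. Versions, and whether reads of the same molecular identifier were collapsed, are not given in the sources used here. The labels gave region, genotype and mouse number. Of 85964 transcripts, 69288 matched a symbol by accession without version, and each gene was its transcript with the highest total.

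Genes reaching 5 cpm in 2 or more libraries of the comparison were scaled by TMM and tested with edgeR 4.0.16 (quasi-likelihood, Benjamini-Hochberg adjustment) in R 4.3.3, per region between genotypes and over 22 libraries with 6 group means between regions and for genotype by region, without a mouse block. The genotypes were also compared over the 3 regions with limma 3.58.1 (voom, mouse as random block). The fits were tested on simulated data. Here 5 cpm stood for 13.8 to 44.3 counts, and the biological coefficient of variation was 14.0% to 16.0% within regions. Levels are cpm scaled by TMM over the 22 libraries. Between genotypes within a region, the p-values set a difference against the spread between mice. Between regions and for genotype by region, they set it against the spread between libraries, with libraries of the same mouse treated as separate.

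The members, the lists of related genes and the markers were chosen with earlier results of these data known. Named genes are the members, from each list the 3 with the largest called difference in a region comparison (a selection is given) and those with p below 0.01 between genotypes, and the 3 genes most like a member by each correlation (a selection is given). A few genes these rules name are not reported here. Dlx1, Kcnc2, Reln, Cadps2, Sstr3, the Tulp4 transcript excess and the Gad1 to Gad2 ratio were chosen after their values were seen. Alternatives were RLE scaling, DESeq2 1.42.0, other filters, sums of distinct transcripts, a mouse block, WT libraries alone and each library left out; leaving out m118 or the 2 choroid-rich hippocampi was added after seeing the data.

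The mouse numbers pair the regions, since the same animal gave them. Over genes, the deviations of libraries of a mouse from their group means correlated by 0.0862 on average for cortex and hippocampus, 0.0491 for cerebellum and hippocampus and -0.0043 for cerebellum and cortex.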

Additional observations from a re-analysis of the deposited data

Results flagged for a closer look

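In 40 groups of 4 libraries (10 genes in 4 groups), 2 held a library whose gap to the nearest other exceeded Dixon's 95% limit as a share of the range of the group, and chance gives about 2. Both were for Vip. In the CD hippocampi the library of m118 had 24.6 cpm, below the other 3 at 32.8 to 33.6 cpm. This library also goes against its label by 16 Tulp4 counts, on a measure chosen after the values were seen. In the CD cortices the library of m242 had 161.9 cpm, above the other 3 at 124.5 to 129.2 cpm. With a genotype by region test at an FDR of 0.05, 0 members were found by edgeR, with 1 (Npy) at an unadjusted p below 0.05.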

How the results depend on the processing

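The number of members called, 3 for cortex against hippocampus, 8 for cerebellum against either forebrain region and 0 between genotypes, was the same under RLE scaling, DESeq2, other count filters and with each of the 22 libraries left out. With the mouse as a replicate block, which pairs the regions of a mouse, the counts were 3, 8 and 8, and the block changed no other call. With WT libraries alone Gad2 turned to 0.13 for cortex against hippocampus, and Gad1 passed the thresholds for cerebellum against hippocampus (1.11), so that 9 were called there. With a library left out, uncalled values for cortex against hippocampus changed sign, with ranges of -0.13 to 0.018 for Gad2, -0.11 to 0.015 for Sst and -0.19 to 0.028 for Tac1; called values kept their sign. Genotype differences were less stable: 46 of 426 values with a library left out had the other sign, as had 3 of 38 without m118, an alternative chosen after seeing the data. For the cerebellar values the range was -0.27 to -0.21 for Gad2 and 0.27 to 0.45 for Npy. Of 60 group levels, 7, all cerebellar, moved by more than 1 SD when cpm were divided by library totals in place of TMM. With sums of distinct transcripts Tac1 fell below the filter and gave no value, so that 7 were called for cerebellum against either forebrain region. Counts limit Vip and Tac1 in the cerebellum.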
